A study of Rattus norvegicus with 23 samples.

Results

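Microglia of neonatal rats exposed to both lipopolysaccharide (LPS) and hypoxia-ischemia (HI) were compared with microglia of sham-operated pups. The comparison used 12 of the 23 libraries of the series, all 6 LPS/HI and all 6 Sham libraries as their labels name them, and covered all 20301 genes of the deposited table. All animals were Wistar rats of both sexes at postnatal day 7. LPS/HI pups received LPS of E. coli O55:B5 at 0.1 mg/kg into the peritoneum 4 h before the left carotid artery was ligated, and then spent 50 min in 8% oxygen. NaCl/HI pups received saline in place of LPS before the same procedure (6 libraries), LPS pups received LPS but no HI (5 libraries), and Sham pups had neither, with no injection listed. Microglia were isolated 24 h later with magnetic beads against CD11b/c, a surface integrin that other myeloid cells carry too. A Sham or LPS library held cells of 1 whole brain, and an HI library those of the ipsilateral hemispheres pooled from 2 pups. HI, the tissue taken and pooling therefore cannot be told apart in any difference of LPS/HI from Sham or from LPS. Against Sham, the treatment and the injection itself cannot be told apart either.

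Microglia are the resident macrophages of the brain. They sense LPS through Toll-like receptor 4 and CD14, which start NF-kB signalling and the production of cytokines, chemokines and complement. In the newborn brain they divide, prune synapses and clear dead cells, and systemic inflammation before HI is known to worsen the injury, with blood leukocytes entering through activated vessels. Values are log2 values after the regularized log (rlog) transformation of DESeq2, which draws weakly expressed genes toward their mean, so a difference of 1 is a doubling on that scale and understates the change of weak genes. The library medians lay between 7.75 and 7.82. The number of reads per library is unknown. Levels are compared between samples, not between genes. The microglia genes Tmem119, P2ry12 and Cx3cr1 were measured in every library of both groups, and Cx3cr1, the fractalkine receptor, lay between 15.41 and 15.70 in all 12 libraries. Markers of neutrophils, vessels, astrocytes and the pineal gland were measured as well, and their values stand beside the results they move with.

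LPS/HI microglia differed from Sham microglia by many small changes and few large ones. In a limma fit of all 23 libraries, 1075 genes rose and 706 fell at an adjusted p under 0.05, which is 5.3% and 3.48% of all genes. The median size of these 1781 differences was 0.27, and 150 exceeded 0.5. Counts of risen and fallen list members in this comparison stand against 5.3% and 3.48% of all genes. With a 1.5-fold threshold added, 63 genes were higher (0.31% of all) and 23 lower (0.113%). Past a fold of 2 as well as the adjusted p there were 13 higher and 6 lower genes, together 0.0936% of all genes. All LPS/HI libraries lay above all Sham libraries in 782 genes and below them in 512, together 6.37% of all genes, and 918 of the called genes were among these. The balance of directions depended on scaling: after each library was centred on its median, 849 genes were higher and 881 lower.

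Before deposit, 3 surrogate variables were taken out with the group means held fixed, which narrows the spread between replicates, so p-values can come out too low. The library names are numbered without a break, and the order of the groups repeats in them. At that repeat the libraries were split into 2 series, with 3 libraries of each compared group in both, although the labels name no series. All 1781 differences had the same sign in both series, which the choice of these genes over the same libraries all but fixes. Leaving out Sham replicate 1, 5 or 6 or LPS/HI replicate 2, 3, 4 or 5 lowered the number of genes called by adjusted p by over 1.5 times, down to 506 higher and 263 lower without LPS/HI replicate 5. The number of higher genes past the fold of 2 fell to between 5 and 8 without Sham replicate 5 or 6 or LPS/HI replicate 1 or 4, and that of lower ones to 3 without Sham replicate 6 or LPS/HI replicate 6. A gene described as risen or fallen against Sham kept its adjusted p under 0.05 with any 1 library left out, unless the libraries that end the call are given. Calls against LPS or NaCl/HI were not followed with libraries left out or under other processing. By the exact Wilcoxon rank-sum test, adjusted over all genes, the calls of Olfm4, S100a8, Il1r2, Anxa1, Cd14, Slco2b1, Ccl24, Top2a and Egr2 ended (adjusted p = 0.0612), and those of Plac8, Ppp1r14b-ps2 and Mmp8 ended too.

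**Figure D1:**
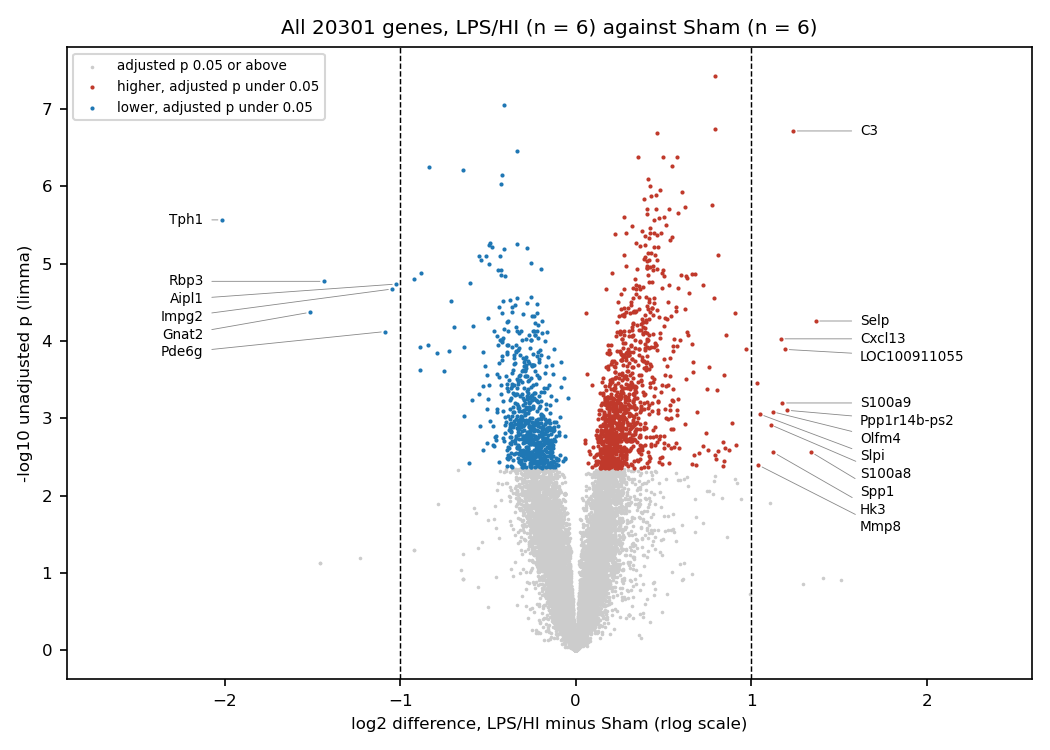
Difference between LPS/HI and Sham (x axis, log2 value) against the −log10 of the unadjusted p of limma (y axis) for all 20301 genes, with called genes in color and those past a fold of 2 (dashed lines) that the text describes named. The 13 higher genes reach a difference of 1.37 and the 6 lower genes extend to -2.01.

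The genes past a fold of 2 upward included C3, Selp, Spp1 and several neutrophil markers, and the 6 downward were all members of the list of pineal and photoreceptor genes. C3, the central component of complement, was between 10.74 and 11.19 in Sham (median 11.08) and between 12.04 and 12.56 in LPS/HI (median 12.27). The groups were clearly apart, by 1.24 ± 0.17 (SE, adjusted p = 0.000843), and the difference was 1.42 in the first and 1.06 in the second series of libraries. Selp, which encodes P-selectin and lets leukocytes roll on activated endothelium, ranged from 4.66 to 6.13 in Sham (median 5.48) and from 5.98 to 7.77 in LPS/HI (median 6.69). Its ranges overlapped slightly, and the difference was 1.37 ± 0.27 (adjusted p = 0.00595). Spp1, which encodes the matrix protein osteopontin of activated macrophages, was 9.17 to 10.33 in Sham (median 9.98) and 10.81 to 11.67 in LPS/HI (median 11.11). The ranges of Spp1 did not overlap, yet its call (difference 1.34, adjusted p = 0.0381) was lost without Sham replicate 1, 4, 5 or 6 or any of LPS/HI replicates 1 to 5, with an adjusted p of up to 0.0881.

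Cxcl13, a B-cell attracting chemokine, rose by 1.17 (adjusted p = 0.00744), from a Sham median of 4.08 to 5.36 without overlap. Hk3, a hexokinase of myeloid cells, was 1.13 higher (adjusted p = 0.0383), with overlapping ranges and the same libraries ending its call as for Spp1 (adjusted p up to 0.0906). The mean differences of Spp1 and Hk3 from Sham were larger in NaCl/HI than in LPS/HI, at 2.27 and 1.59, but not called by limma (adjusted p = 0.0658 and 0.0788). The difference between LPS/HI and NaCl/HI was not called either (adjusted p = 0.402 and 0.657). NaCl/HI replicate 4 was the lowest of its group for both genes, at 10.15 and 6.24. The remaining risen genes of this class outside the neutrophil markers were LOC100911055 (1.19, adjusted p = 0.00849), named by identifier alone, and the pseudogene Ppp1r14b-ps2 (1.20, adjusted p = 0.0212, lost without Sham replicate 1 or 5 or LPS/HI replicate 5 with up to 0.0598). Reads of a pseudogene can be shared with its parent gene, so that value is uncertain.

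A part of the complement genes rose, with C3 the largest. Of 26 complement genes, 8 rose and 1 fell, against the 5.3% and 3.48% of all genes, and their median difference was 0.17 against -0.0024 over all genes. C4a and C4b, near-identical genes of the classical pathway whose reads the counting could divide, rose by 0.58 (adjusted p = 0.00164) and 0.61 (adjusted p = 0.00134). C7, part of the membrane attack complex, was 5.18 to 5.65 in Sham (median 5.47) and 5.88 to 6.19 in LPS/HI (median 5.98). All 6 LPS/HI libraries lay above all Sham libraries for C7 (difference 0.58, adjusted p = 0.000941). The fallen member was C3ar1 (-0.23), the receptor of the C3a fragment.

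A2m, the broad protease inhibitor alpha-2-macroglobulin, had the smallest adjusted p of the genes named here. It lay between 7.92 and 8.32 in Sham (median 8.14) and between 8.65 and 9.17 in LPS/HI (median 8.93), with no overlap, a difference of 0.79 ± 0.10 and an adjusted p of 0.000755. Timp1, an inhibitor of matrix metalloproteinases, rose by the same 0.79 (adjusted p = 0.000843), from a Sham median of 8.63 to 9.35. Of 35 matrix proteases and protease inhibitors 8 rose and none fell, and the number was 4 or 5 without Sham replicate 2, 5 or 6 or LPS/HI replicate 2, 3 or 4. The others included Mmp3 (0.67, adjusted p = 0.0101), the stromelysin that opens up basement membrane, for which the groups did not overlap. Flnc, an actin crosslinker, rose by 0.68 (adjusted p = 0.003).

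**Figure D2:**
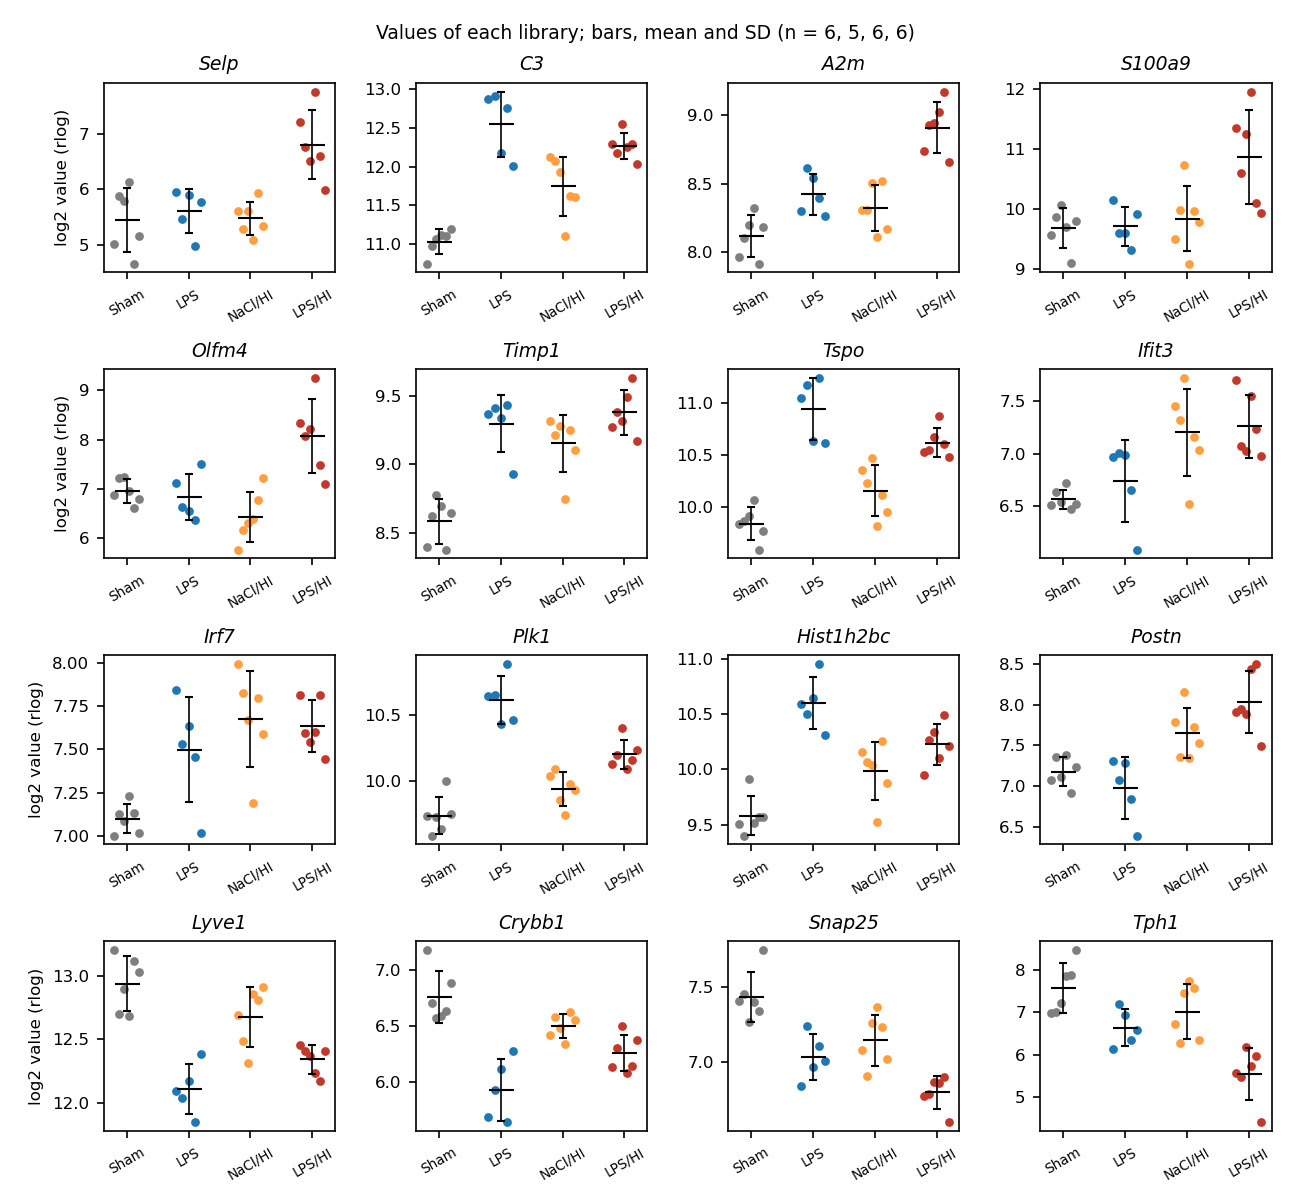
Log2 value (y axis) of 16 genes in each library (points) of the 4 groups (x axis), with bars for the mean and SD of a group. C3 and A2m separate LPS/HI from Sham in all 12 libraries, and Tph1 lies lower in every LPS/HI library than in any Sham library.

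A part of the neutrophil markers rose in LPS/HI. Of 35 measured neutrophil markers, 11 were higher than in Sham and none lower, against 5.3% and 3.48% of all genes. Their median difference was 0.34, while the same median was -0.035 in LPS against Sham and 0.012 in NaCl/HI against Sham. These comparisons share the Sham libraries. S100a9, a subunit of calprotectin, the calcium-binding protein of neutrophils and monocytes, was 9.09 to 10.07 in Sham (median 9.75) and 9.94 to 11.95 in LPS/HI (median 10.92). The upper end of Sham only just met the lower end of LPS/HI, and the difference was 1.18 ± 0.29 (adjusted p = 0.0193). Its partner S100a8 was 1.11 higher (adjusted p = 0.0262), a call lost without Sham replicate 5 or 6 or LPS/HI replicate 3 or 4 (adjusted p up to 0.0632).

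Further neutrophil markers gave calls of unequal firmness. Olfm4, a protein of specific granules, was 6.62 to 7.25 in Sham (median 6.91) and 7.09 to 9.25 in LPS/HI (median 8.14), a difference of 1.12 (adjusted p = 0.0219) with overlap at the edge. Padi4, the enzyme that citrullinates histones in neutrophil traps, rose by 0.75 (adjusted p = 0.0157) with no overlap. Anxa1, a protein that limits leukocyte adhesion, rose by 0.58 (adjusted p = 0.0211). The collagenase Mmp8 was 1.04 higher, but its adjusted p of 0.0476 stayed under 0.05 in only 7 of the 23 fits without 1 library (up to 0.112). Slpi, an inhibitor of neutrophil elastase, was 1.05 higher (adjusted p = 0.0228, up to 0.0554 without Sham replicate 5 or 6 or LPS/HI replicate 4), and the decoy receptor Il1r2 0.89 higher (adjusted p = 0.0256, and 0.0606 without Sham replicate 5).

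Not every neutrophil gene was higher. Ngp, a granule protein of maturing neutrophils, differed by -0.58 (adjusted p = 0.0939), and Lcn2, lipocalin 2, by 0.45 (adjusted p = 0.183). Elane, the elastase of early precursors, stayed between 0.31 and 0.40 in all 12 libraries. These 3 genes were chosen after their values were seen. The libraries were uneven: relative to the Sham mean, the mean of the neutrophil markers was 0.89 in LPS/HI replicate 4, between 0.35 and 0.60 in replicates 1 to 3, and 0.09 and 0.11 in replicates 5 and 6, and Sham replicate 5 was the lowest Sham library at -0.27. The mean level of the list spanned 5.50 to 5.93 in Sham and 5.86 to 6.65 in LPS/HI. The number of called markers fell to 5 if Sham replicate 5 was left out, to 6 if Sham replicate 6 or LPS/HI replicate 4 was, and to 7 if LPS/HI replicate 3 was. In these bulk samples, more cells of a type and more RNA per cell cannot be told apart.

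Of 29 monocyte markers 9 were higher and none lower, against 5.3% and 3.48% of all genes, with a median difference of 0.30. Spn, the leukocyte sialophorin of patrolling monocytes, had medians of 8.73 in Sham and 9.15 in LPS/HI and was apart in all libraries (difference 0.44, adjusted p = 0.00704), and Napsa, an aspartic protease, rose by 0.76 (adjusted p = 0.0108). Ccr2, the receptor that defines inflammatory monocytes, differed by 0.03 (adjusted p = 0.931), with overlapping ranges of 7.26 to 7.63 and 7.04 to 8.39. Plac8 was 0.45 higher than Sham (adjusted p = 0.0267, up to 0.0641 without Sham replicate 2, 5 or 6 or LPS/HI replicate 3), yet lower than in LPS alone (-0.72, adjusted p = 0.00883). The mean of the list lay at 8.22 to 8.61 in Sham and 8.59 to 9.11 in LPS/HI, highest in LPS/HI replicate 1 and lowest in replicate 5. Without Sham replicate 2, 5 or 6 or LPS/HI replicate 3 or 4, 4 or 5 markers were called. What part leukocytes had in the differences of other genes was not tested.

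**Figure D3:**
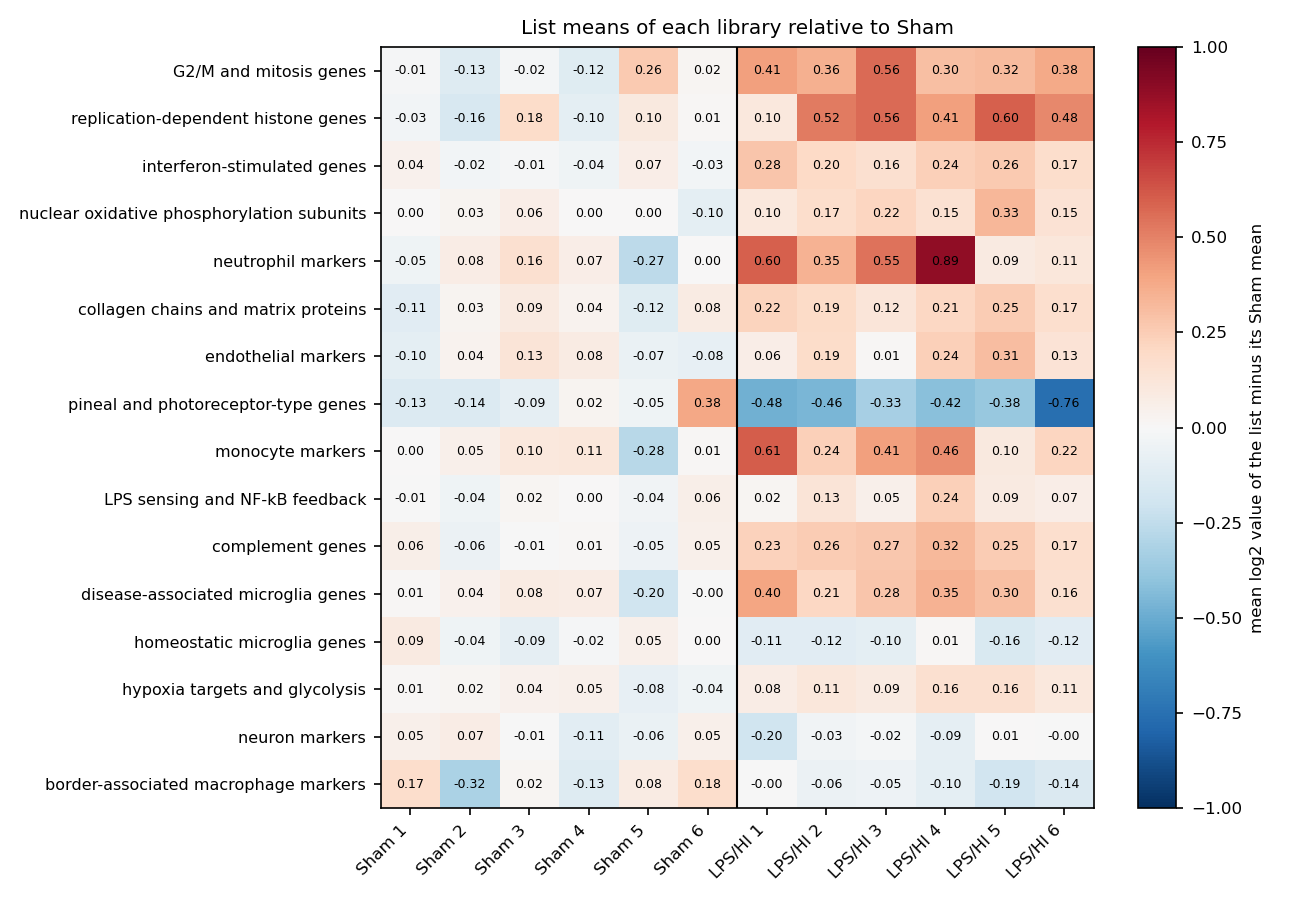
Heat map of the mean log2 value of 16 gene lists (rows) in each Sham and LPS/HI library (columns), relative to the mean of the 6 Sham libraries, with the value in each field (red higher, blue lower). The neutrophil mean spreads from 0.09 to 0.89 among LPS/HI libraries, whereas the mean of the G2/M genes stays between 0.30 and 0.56.

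Of 29 genes of LPS sensing and NF-kB feedback, 6 rose and none fell, although the median difference was only 0.013. Bcl3, an atypical IkB protein, rose from a Sham median of 7.96 to 8.57 with no overlap (0.62, adjusted p = 0.00155), and Tnip1, which restrains NF-kB with A20, rose by 0.28 (adjusted p = 0.00169). Birc3, an NF-kB target that inhibits apoptosis, rose by 0.50 (adjusted p = 0.00286). Tlr1, a coreceptor for bacterial lipopeptides, rose by 0.55 (adjusted p = 0.00202), and Cd14, which hands LPS to its receptor, by 0.58 (adjusted p = 0.0184). Tlr4 differed by -0.11 (adjusted p = 0.285).

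Of 34 cytokines and cytokine receptors, 4 were higher (11.8%) and 3 lower (8.82%), above the 5.3% and 3.48% of all genes, and leaving out 1 library gave 1 to 5 in either direction. Tnf differed by -0.10 (adjusted p = 0.406), and Il1b, at 11.58 to 12.12 in Sham and 11.95 to 12.39 in LPS/HI, by 0.34 (adjusted p = 0.0652). Csf2rb, the shared receptor chain for GM-CSF, rose by 0.54 (adjusted p = 0.00944), and Il6st, the gp130 chain through which IL-6 signals, fell by 0.36 on the log2 scale (adjusted p = 0.00527), without overlap. Tnfsf13b, the B-cell survival factor BAFF, rose by 0.60 (adjusted p = 0.003).

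Of 30 chemokine ligands Ccl6 and Cxcl13 rose (6.67%) and Ccl24 fell (3.33%), shares near those of all genes (5.3% and 3.48%). Ccl6, a CC chemokine of rodent macrophages, was 9.10 to 9.67 in Sham (median 9.45) and 10.07 to 10.36 in LPS/HI (median 10.20). The 6 LPS/HI libraries lay close together and above Sham (0.81 ± 0.14, adjusted p = 0.00248). The neutrophil attractants Cxcl1 and Cxcl2 differed by 0.23 (adjusted p = 0.297) and -0.01 (adjusted p = 0.948), and Ccl2, which attracts monocytes, by -0.37 (adjusted p = 0.0518).

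A part of the genes of microglial activation rose and a part of the homeostatic genes fell. Tspo, the outer mitochondrial protein used to image activated microglia, was 9.59 to 10.07 in Sham (median 9.86) and 10.48 to 10.87 in LPS/HI (median 10.58). Tspo separated the groups fully (0.77 ± 0.12, adjusted p = 0.00155). Of 39 genes of disease-associated microglia 8 rose and none fell, with a median difference of 0.24. Ctsz, a lysosomal cathepsin, rose by 0.50 (adjusted p = 0.000941), Itgax, the integrin CD11c, by 0.85 (adjusted p = 0.0127), and Vim, an intermediate filament, by 0.42 (adjusted p = 0.00709), all without overlap. Apoe, a lipid carrier of the same program, differed by 0.14 (adjusted p = 0.271). This list had 4 or 5 calls without Sham replicate 4 or 5 or LPS/HI replicate 2, 3, 4 or 5, and 14 without NaCl/HI replicate 4.

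Of 35 homeostatic microglia genes 8 fell and 1, Upk1b, was higher (0.38), with a median difference of -0.11. The call of Upk1b was lost without Sham replicate 1, 4, 5 or 6 or LPS/HI replicate 2, 3, 4 or 5. Bin1, an adaptor of membrane curvature, fell by 0.28 on the log2 scale (adjusted p = 0.00744), with ranges of 13.23 to 13.46 in Sham and 12.90 to 13.20 in LPS/HI. Sall1, a transcription factor that keeps microglial identity, fell by 0.22 (adjusted p = 0.0127), with ranges that just met. Crybb1, a crystallin of immature microglia, fell by 0.50 (adjusted p = 0.0127) and Slco2b1, an anion transporter, fell by 0.24 (adjusted p = 0.0181). P2ry12, the purine receptor of microglial processes, differed by -0.25 (adjusted p = 0.164) and Tmem119 by 0.02 (adjusted p = 0.954). The number of fallen genes was 4 or 5 without Sham replicate 1 or 5 or LPS/HI replicate 2 or 5.

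Of 19 markers of macrophages at the borders of the brain, 2 fell and none rose. Lyve1, a hyaluronan receptor of perivascular and meningeal macrophages, was 12.69 to 13.21 in Sham (median 12.97) and 12.17 to 12.46 in LPS/HI (median 12.39). All LPS/HI libraries were lower (-0.60 ± 0.11, adjusted p = 0.00347). Ccl24, an eosinophil-attracting chemokine, fell by 0.43 (adjusted p = 0.0148). The other 17 markers gave no call, among them Mrc1 (-0.31, adjusted p = 0.188) and Cd163 (-0.21, adjusted p = 0.624).

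**Figure D4:**
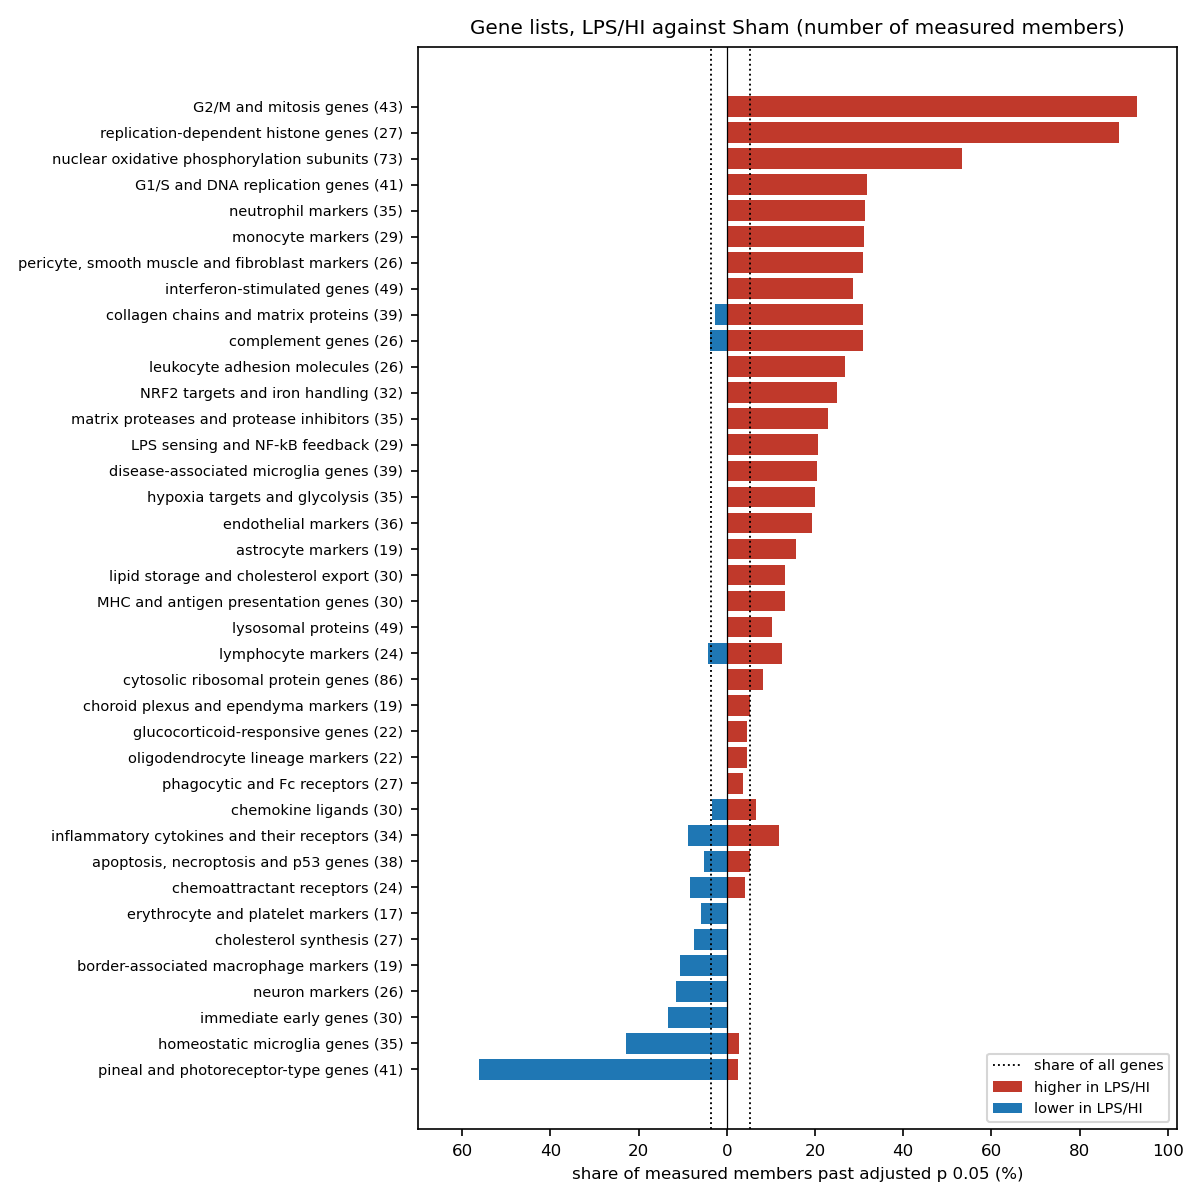
Share of measured members of each gene list that rose or fell in LPS/HI against Sham at an adjusted p of limma under 0.05 (x axis, percent of members, higher to the right and lower to the left), with dotted lines at the share of all genes and the number of measured members in brackets. Lists with no call are left out. Mitosis and histone genes have the largest risen shares, at 40 of 43 and 24 of 27, and the pineal list has the largest fallen share, at 23 of 41.

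A part of the interferon-stimulated genes rose by small amounts. Of 49 measured, 14 rose and none fell, with a median difference of 0.15 in LPS/HI, and medians of 0.20 in LPS and 0.070 in NaCl/HI against the shared Sham libraries. The number was 8 without LPS/HI replicate 2, 4 or 5. Irf7, the factor that amplifies type I interferon, was at most 7.23 in Sham (median 7.11) and at least 7.45 in LPS/HI (median 7.60), without overlap (0.54, adjusted p = 0.0128). Gbp2, a guanylate-binding protein against intracellular pathogens, rose by 0.40 (adjusted p = 0.00849), and Ifitm1, which blocks virus entry, by 0.55 (adjusted p = 0.00864). Ifit3, which binds to viral RNA sensing complexes, was 0.69 higher (adjusted p = 0.0219, and 0.0508 without LPS/HI replicate 4). Antigen processing was represented by Tapbp, the tapasin of the class I loading complex (0.35, adjusted p = 0.00368), and Psme1, a proteasome activator (0.25, adjusted p = 0.00863), in a list of 30 MHC and antigen presentation genes with 4 risen and none fallen. Leaving out LPS replicate 1 gave 7. The class II chaperone Cd74 differed by 0.18 (adjusted p = 0.257).

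Some promoters of these genes carry the element that interferon-activated factors bind. Stretches of 3 of them are shown because the genes rose together, taken from RefSeq on GRCr8 and written 5′ to 3′ on the strand of the gene, with a match to GAAANNGAAA on either strand in capitals. They are the regions chr1:241527257-241527316 (plus strand), chr1:205800058-205800117 (minus strand) and chr2:234005671-234005730 (plus strand).
Ifit3: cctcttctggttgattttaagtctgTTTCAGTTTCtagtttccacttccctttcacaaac
Irf7: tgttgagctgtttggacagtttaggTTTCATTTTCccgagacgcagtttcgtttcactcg
Gbp2: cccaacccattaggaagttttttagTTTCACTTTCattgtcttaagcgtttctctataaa
The match begins 44 bases before the start of Ifit3, 69 before that of Irf7 and 31 before that of Gbp2, each time on the opposite strand. Promoters of 250 bases before to 50 bases after the start were at hand for 37 of the 49 genes, and 24 of them (64.9%) held the element, against 3.2% of 13939 promoters of measured genes. Of the 10 risen genes with a promoter, 8 held it. A match describes the sequence and does not show binding.

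Many subunits of the respiratory chain rose by small amounts. Of 73 nuclear genes for subunits of oxidative phosphorylation, 39 rose (53.4%, against 5.3% of all genes) and none fell, with a median difference of 0.19. None of the 13 genes encoded in the mitochondrial genome was called in this limma fit, and 1 of them had a positive difference. Ndufa9, a complex I subunit, was 9.92 to 10.07 in Sham and 10.16 to 10.34 in LPS/HI, narrow ranges that did not overlap (0.23 ± 0.05, adjusted p = 0.00713). Cox6a2, a cytochrome c oxidase subunit of muscle, rose by 0.73 (adjusted p = 0.0035). The count rested on several libraries: it was 10 without LPS/HI replicate 5 and between 14 and 25 without Sham replicate 1, 4, 5 or 6 or LPS/HI replicate 2, 3 or 4. It was 5 without replicate 6 of both groups and 30 after median centring.

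Of 35 hypoxia targets and glycolytic genes 7 rose and none fell, and all 7 encode glycolytic enzymes or lactate dehydrogenase. Pgk1, phosphoglycerate kinase, went from a Sham median of 12.06 to 12.43 without overlap (0.36, adjusted p = 0.0069). Vegfa, the vascular growth factor induced by hypoxia, differed by 0.37 (adjusted p = 0.0829). This count was 2 without LPS/HI replicate 5 and 3 or 4 without Sham replicate 5 or 6 or LPS/HI replicate 2, 3 or 4.

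Of 32 targets of NRF2 and genes of iron handling 8 rose and none fell. Leaving out Sham replicate 6 or LPS/HI replicate 3 gave 5. Txn1, thioredoxin, rose by 0.42 (adjusted p = 0.00578) and Nqo1, a quinone reductase, by 0.41 (adjusted p = 0.00693), both without overlap. Mt2A, a metallothionein that binds zinc and copper, rose by 0.67 over Sham (adjusted p = 0.012) and was 0.82 higher than in NaCl/HI (adjusted p = 0.0354). Hmox1, heme oxygenase 1, differed by -0.07 (adjusted p = 0.708). In lipid handling, Plin2, the coat of lipid droplets, rose by 0.50 (adjusted p = 0.00643) without overlap, and Insig1, which holds back cholesterol synthesis and is itself a target of that pathway, fell by 0.27 (adjusted p = 0.00991). Of 30 genes of lipid storage and export 4 rose (2 without Sham replicate 5 or 6 or LPS/HI replicate 1, 2 or 3). Of 27 genes of cholesterol synthesis 2 fell (7.41%, against 3.48% of all genes). Their number was 1 to 5 when 1 library was left out, 5 after median centring and 6 after quantile normalization. Of 49 lysosomal proteins 5 rose (10.2%, against 5.3% of all genes), with 1 to 8 when 1 library was left out and 1 after median centring. Lamtor1, an anchor of the Ragulator complex on lysosomes, rose by 0.66 (adjusted p = 0.003).

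Mitosis genes had the largest share of risen members among the 40 lists. Of 43 G2/M and mitosis genes, 40 rose and none fell, against 5.3% of all genes, with a median difference of 0.41, and between 38 and 43 rose with any 1 library left out. Plk1, the kinase that drives entry into mitosis, was 9.58 to 9.996 in Sham (median 9.73) and 10.09 to 10.40 in LPS/HI (median 10.18). Every LPS/HI library was above every Sham library, as in 22 of the 43 genes, where 6.37% of all genes did not overlap in either direction (Plk1 0.47 ± 0.08, adjusted p = 0.00256). Cdc20, an activator of the anaphase-promoting complex, rose by 0.40 (adjusted p = 0.00441), and Pttg1, which encodes securin, by 0.52 (adjusted p = 0.00191). Mki67, the marker of dividing cells, rose by 0.37 (adjusted p = 0.019) and Top2a, which untangles DNA before division, by 0.39 (adjusted p = 0.00693). Plk1, Cdc20, Pttg1, Ifit3 and Hist1h2bc were chosen after their values were seen.

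A smaller share of the genes of DNA replication rose. Of 41 G1/S genes 13 rose and none fell, with a median difference of 0.14, and 8 rose without Sham replicate 1, 4 or 6 or LPS/HI replicate 2, 3, 4 or 5. Rrm2 and Rrm1, the subunits of ribonucleotide reductase, rose by 0.43 (adjusted p = 0.00248) and 0.38 (adjusted p = 0.00578). Pcna, the replication clamp, differed by -0.03 (adjusted p = 0.827) and the helicase subunit Mcm2 by 0.12 (adjusted p = 0.256). Of 27 replication-dependent histone genes, 24 rose and none fell, with a median difference of 0.47 and between 17 and 25 risen when 1 library was left out. Hist1h2bc, an H2B gene, was 9.40 to 9.92 in Sham (median 9.54) and 9.95 to 10.49 in LPS/HI (median 10.24), just without overlap (0.64, adjusted p = 0.00408). The linker histone H1f2 rose by 0.35 (adjusted p = 0.00286). Histone genes are near-identical copies, so the reads of single members are uncertain.

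The means of the mitosis and histone genes were lower in LPS/HI than in LPS alone. In LPS against Sham the median difference was 0.70 for the mitosis genes and 0.89 for the histone genes, and in NaCl/HI against Sham it was 0.14 and 0.25, with shared Sham libraries. All 43 mitosis genes had a lower mean in LPS/HI than in LPS, and 14 of them passed the test of that difference, in which 1.94% of all genes were called. The difference from LPS was -0.42 for Plk1 (adjusted p = 0.015), -0.42 for Cdc20 (adjusted p = 0.00915) and -0.44 for Pttg1 (adjusted p = 0.012). All 27 histone genes had a lower mean than in LPS and 6 passed. Against NaCl/HI, where 0.202% of all genes were called, all 43 mitosis genes had a higher mean in LPS/HI and 1, Pttg1 (0.40, adjusted p = 0.046), passed.

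Parts of the promoters of Plk1 and Cdc20 are shown because cell cycle genes moved together, from RefSeq on GRCr8, 5′ to 3′ on the strand of the gene. Capitals mark TTTGAA, the core of the cell cycle homology region, and CCAAT, the box bound by NF-Y, each searched on both strands. They are the regions chr1:186147595-186147694 (plus strand) and chr5:137255811-137255910 (minus strand).
Plk1: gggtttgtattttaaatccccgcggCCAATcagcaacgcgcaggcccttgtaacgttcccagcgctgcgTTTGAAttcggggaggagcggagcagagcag
Cdc20: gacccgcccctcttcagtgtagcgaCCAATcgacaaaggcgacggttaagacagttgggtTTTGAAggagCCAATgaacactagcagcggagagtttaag
Of 37 mitosis genes with a promoter, 27 (73.0%) held TTTGAA, against 13.6% of all 13939 promoters, and 28 (75.7%) held CCAAT, against 37.4%. Among the 34 that rose, 24 held the former and 26 the latter. The same CCAAT box was in 22 of 25 histone promoters (88.0%).

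**Figure D5:**
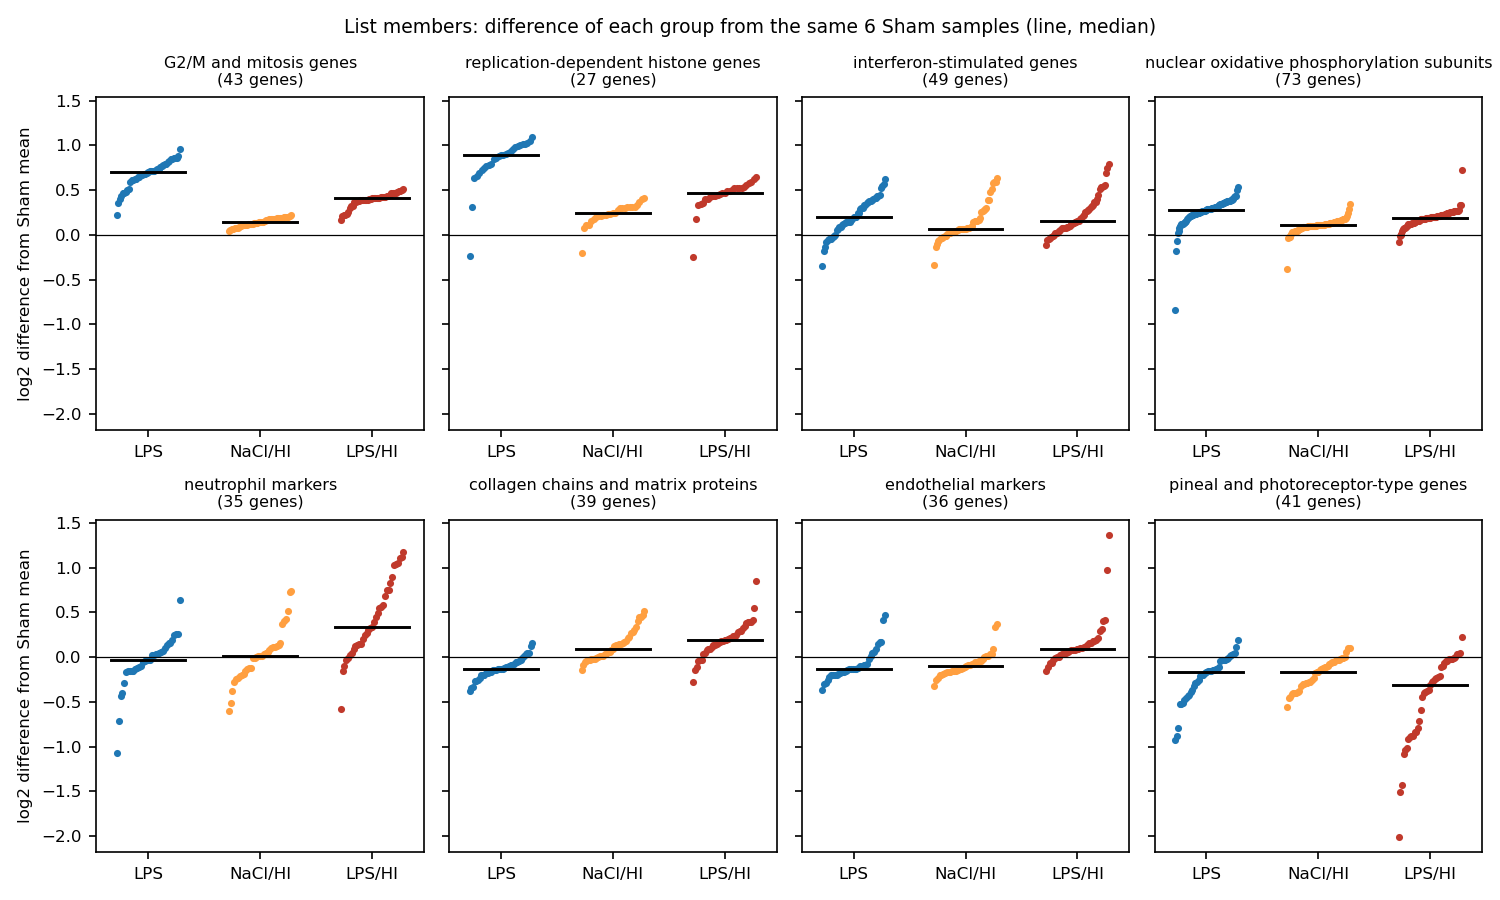
Difference from the Sham mean (y axis, log2 value) of each member (points) of 8 gene lists (panels) in LPS, NaCl/HI and LPS/HI (x axis), which share the Sham libraries, with a line at the median. The median of mitosis and histone genes is highest in LPS at 0.70 and 0.89, and that of neutrophil markers in LPS/HI at 0.34.

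A part of the matrix genes rose in LPS/HI, and many were higher than in LPS. Of 39 collagens and matrix proteins, 12 rose and 1, Fbln5, was lower (-0.28), against 5.3% and 3.48% of all genes. The call of Fbln5 was lost without any 1 of Sham replicates 2 to 6 or without LPS/HI replicate 2, 3, 4 or 6. The median difference of the list was 0.19, compared with -0.14 in LPS and 0.093 in NaCl/HI against the same Sham libraries. Directly against LPS, where 1.94% of all genes were called, 38 of the 39 had a higher mean in LPS/HI, and 19 passed the test, none of them lower. In LPS against Sham, where 17.8% of all genes were called in either direction, 7 of the 39 were called lower. In LPS/HI against NaCl/HI, where 0.202% of all genes were called, 0 of the 39 were called. Postn, periostin of injured tissue, was 6.91 to 7.38 in Sham (median 7.17) and 7.49 to 8.50 in LPS/HI (median 7.93). The groups were apart by 0.85 ± 0.18 (adjusted p = 0.00709), and LPS/HI exceeded LPS by 1.05 (adjusted p = 0.00883). Col6a2, a collagen VI chain, rose by 0.40 (adjusted p = 0.00223), Mfap4, a microfibril protein, by 0.41 (adjusted p = 0.003) and Dcn, the proteoglycan decorin, by 0.39 (adjusted p = 0.0112), all without overlap and each higher than in LPS (adjusted p between 0.00794 and 0.00911). Without LPS/HI replicate 5, 6 of the 39 rose.

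Markers of vessel wall cells gave calls in a minority of members. Of 26 markers of pericytes, smooth muscle and fibroblasts 8 rose and none fell, 4 of them collagen or decorin genes counted above, and 2 to 5 rose without Sham replicate 1, 2, 4 or 5 or LPS/HI replicate 2, 4 or 5. Of 36 endothelial markers 7 rose and none fell, with a median difference of 0.086, and 2 to 4 rose without Sham replicate 1, 2, 5 or 6 or LPS/HI replicate 2, 4 or 5. The mean level of the endothelial list was 9.84 to 10.06 in Sham and 9.95 to 10.24 in LPS/HI. Lrg1, a glycoprotein of inflamed vessels and of neutrophils, was 6.32 to 7.21 in Sham (median 6.99) and 7.50 to 8.52 in LPS/HI (median 7.80), with no overlap (0.97, adjusted p = 0.00842). Of 26 leukocyte adhesion molecules 7 rose, with the largest difference in Selp, and 3 or 4 rose without Sham replicate 1, 2, 5 or 6 or LPS/HI replicate 2, 3, 4 or 5. The part of vessel cells in the matrix result was not tested.

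The genes with the largest falls belong to the pineal gland and to photoreceptors, which share much of their expression. Of 41 such genes 23 fell and 1, Slc38a4, rose (0.23), against 3.48% and 5.3% of all genes, with a median difference of -0.31. The same median was -0.16 in LPS and -0.17 in NaCl/HI against the shared Sham libraries. Tph1, which starts serotonin and melatonin synthesis, was 6.99 to 8.47 in Sham (median 7.53) and 4.41 to 6.17 in LPS/HI (median 5.65). Tph1 was lower in all LPS/HI libraries by -2.01 ± 0.32 (adjusted p = 0.00169), with -1.34 in the first and -2.69 in the second series. Gnat2, the transducin of cones, fell (-1.51, adjusted p = 0.00527), as did Rbp3, a retinoid carrier (-1.43, adjusted p = 0.00337), and Pde6g, a phosphodiesterase subunit (-1.08, adjusted p = 0.0069). Impg2 and Impg1, proteoglycans of the photoreceptor matrix, fell as well (-1.04, adjusted p = 0.00368, and -0.83, adjusted p = 0.00103), and so did Aipl1, a chaperone of phosphodiesterase (-1.02, adjusted p = 0.0035).

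Transcription factors of this program were among the fallen genes. Crx, the homeobox factor of photoreceptors and pinealocytes, was 2.62 to 3.66 in Sham (median 2.97) and 1.48 to 2.38 in LPS/HI (median 2.15), with no overlap (-0.92, adjusted p = 0.00319). Lhx4, a LIM homeobox factor, fell (-0.71, adjusted p = 0.00467), and so did Tulp1, a photoreceptor trafficking protein (-0.88, adjusted p = 0.00297). The mean level of the list was 3.53 to 4.05 in Sham and 2.91 to 3.34 in LPS/HI. Relative to the Sham mean, Sham replicate 6 was the highest library at 0.38 and LPS/HI replicate 6 the lowest at -0.76, and the other LPS/HI libraries lay between -0.48 and -0.33. Without both of these libraries 16 of the genes fell, and with any 1 library left out 19 to 24. Leaving out both also gave 35 risen mitosis genes, 5 risen oxidative phosphorylation genes, 6 risen G1/S genes and 2 fallen homeostatic genes. With all libraries these were 40, 39, 13 and 8. Sham libraries were made from whole brains and LPS/HI libraries from hemispheres, and the part of dissection in the pineal result was not tested.

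Stretches of the promoters of Crx, Rbp3 and Aipl1 show matches to TAATCC, the core letters bound by the Crx and Otx factors, in capitals and searched on both strands. They come from RefSeq on GRCr8, 5′ to 3′ on the strand of the gene, at chr1:85681919-85682047 (minus strand), chr16:9273659-9273714 (plus strand) and chr10:57163495-57163550 (minus strand).
Crx: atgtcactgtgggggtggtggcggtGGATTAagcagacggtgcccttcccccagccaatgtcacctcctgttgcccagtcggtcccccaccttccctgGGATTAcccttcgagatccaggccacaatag
Rbp3: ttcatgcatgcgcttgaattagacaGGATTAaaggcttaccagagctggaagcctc
Aipl1: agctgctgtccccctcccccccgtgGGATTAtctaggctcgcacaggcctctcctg
All the matches shown lie on the opposite strand, as GGATTA. The element was in 10 of 31 promoters of the list (32.3%), 4 of them among the 19 fallen genes with a promoter, and in 5.72% of all 13939 promoters.

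Of 26 neuron markers 3 fell and none rose, while 13 had a positive difference and the median difference was -0.0087. Snap25, a synaptic vesicle fusion protein, was 7.26 to 7.75 in Sham (median 7.40) and 6.59 to 6.89 in LPS/HI (median 6.82), lower in every library (-0.64 ± 0.09, adjusted p = 0.00103). Slc17a7, the vesicular glutamate transporter of cortical neurons, fell by 0.72 (adjusted p = 0.00874), its ranges meeting at 6.42. For both genes Sham replicate 6 was the highest Sham library and LPS/HI replicate 6 the lowest of its group, the libraries that stood apart in the pineal list. Kcnj15, a potassium channel, fell by 0.69 (adjusted p = 0.00655). Of 30 immediate early genes, transcribed within minutes of a stimulus, 4 fell (2 without LPS/HI replicate 5), among them Klf10 (-0.51, adjusted p = 0.00248) and Egr2 (-0.53, adjusted p = 0.015), whereas Fos differed by -0.06 (adjusted p = 0.705) and Jun by -0.23 (adjusted p = 0.0858).

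Glial markers gave few calls. Gfap, the filament of astrocytes, was 10.18 to 10.998 in Sham (median 10.66) and 11.12 to 11.96 in LPS/HI (median 11.46). The ranges of Gfap did not overlap, but the call (0.84, adjusted p = 0.0326) was lost without Sham replicate 1, 5 or 6 or LPS/HI replicate 2, 4 or 5 (up to 0.0869). Of 19 astrocyte markers 3 were higher, and with 1 library left out between 0 and 3. Mal, a myelin proteolipid, rose by 0.66 (adjusted p = 0.00806) as 1 of 22 oligodendrocyte lineage markers. Adgre4, an adhesion receptor of myeloid cells, rose by 0.64 (adjusted p = 0.00314), as did LOC100362479, named by identifier alone, by 0.63 (adjusted p = 0.003). Of 24 lymphocyte markers 3 were higher (12.5%) and 1 lower (4.17%), against 5.3% and 3.48% of all genes (1 to 3 and 0 to 2 when 1 library was left out). Of 86 ribosomal protein genes 7 were higher (8.14%), with 1 to 25 when 1 library was left out. Of 38 genes of apoptosis and related death 2 were higher and 2 lower, 5.26% each (1 to 3 and 0 to 3 when 1 library was left out). The ribosomal and apoptosis shares were near those of all genes. At most 3 members were called in the lists of chemoattractant receptors (24 genes), phagocytic receptors (27), glucocorticoid-responsive genes (22), erythrocyte and platelet markers (17) and choroid plexus markers (19), and none of the 9 sex-linked genes.

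Set beside the single treatments, most of the called genes were also called after LPS alone, and a minority were called in the direct tests against LPS or NaCl/HI. Of the 1781 genes, 758 of the risen and 440 of the fallen were past the threshold in the same direction in LPS against Sham, 67.3% of these genes and 33.2% of the 3606 genes called there (17.8% of all genes). In NaCl/HI against Sham, in which 0.00985% of all genes were called, none of them passed, and the 3 comparisons share the Sham libraries. In the direct test against LPS, with 1.94% of all genes called, 74 of the risen genes were higher in LPS/HI and 76 lower, and of the fallen genes 5 were lower and 8 higher. Against NaCl/HI, with 0.202% of all genes called, 27 of the risen genes were higher and none lower, and 6 of the fallen genes were lower and none higher. The genes were chosen with the same LPS/HI libraries that enter these direct tests, which favours the direction away from Sham.

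Genes past the threshold against Sham and against both single treatments in the same direction numbered 7, and Selp, A2m and Olfm4 were among them. Their calls against the single treatments were not followed with libraries left out. Selp was 1.20 higher than in LPS (adjusted p = 0.0354) and 1.33 higher than in NaCl/HI (adjusted p = 0.046), while LPS and NaCl/HI differed from Sham by 0.17 and 0.04. A2m exceeded LPS by 0.49 (adjusted p = 0.0158) and NaCl/HI by 0.59 (adjusted p = 0.0185). Olfm4 exceeded them by 1.24 (adjusted p = 0.0385) and 1.63 (adjusted p = 0.0241). A further set of risen genes exceeded LPS but gave no call against NaCl/HI, among them C7 (0.50 above LPS, adjusted p = 0.00832) and Anxa1 (0.73, adjusted p = 0.0189), and another set exceeded NaCl/HI but gave no call against LPS, among them Bcl3 (0.48 above NaCl/HI, adjusted p = 0.0445), Tnip1 (0.24, adjusted p = 0.0328) and Birc3 (0.42, adjusted p = 0.046).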

How the data were processed

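RNA of bead-isolated microglia was sequenced in 23 samples, of which the 6 LPS/HI and 6 Sham samples were compared. Per the study's methods and the submitters' processing notes, the authors checked reads with FastQC 0.11.9 and MultiQC 1.14, and quantified transcripts of mRatBN7.2 with kallisto 0.48.0. Gene counts went through tximport to DESeq2, genes under 10 counts were left out, protein-coding genes sharing a symbol were summed, and the rlog was taken. From these values 3 surrogate variables found by sva were removed with limma. The deposited values are log2 values of this kind for 20301 genes. Counts were not used here, so depth is unknown, no counting error can be given and the DESeq2 test was not run. In 209 genes the values equal those of another gene in every library.

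Groups were compared with limma 3.58.1 in R 4.3.3, fitted once to all 23 samples with eBayes and trend, two-sided. Residual degrees of freedom were set to 16 in place of 19 to account for the surrogate variables. Adjustment by Benjamini-Hochberg covered every gene, with no filter. The labels do not say that samples came from separate litters, so p-values measure only the spread between these samples. Genes named are those past a fold of 2, the 12 of smallest p in each direction past 1.5-fold, and in each of 40 lists the first 2 members and up to 4 called members of smallest p, and some genes named by this rule are left out of the text. Results of some genes are not reported here. Members and lists were chosen with earlier results of these data known, and lists were described by counts and medians only. Promoters were taken from RefSeq (GRCr8), matched by symbol. Python 3.11.15 with numpy 2.4.6, pandas 2.3.3 and matplotlib 3.10.9 was used. The fit was tested on simulated data. Alternatives changed the degrees of freedom, variance trend, robust variances, samples fitted, blocks, a filter on the lowest 25% of genes, scaling, array weights and the test, and left out each library. Lists under each alternative were added after seeing the data.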

Additional observations from a re-analysis of the deposited data

Results flagged for a closer look

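Over 92 genes in LPS/HI and in Sham, 184 groups of 6 libraries in all, a library lay far from the rest of its group in 21, where chance flags about 1 in 20. Replicate 6 of either group in pineal and photoreceptor genes made up 11 of them. Sham replicate 6 was the highest Sham library for Rbp3 (5.673), Aipl1 (4.338), Impg1 (4.863), Lhx4 (4.32) and Tulp1 (4.401). LPS/HI replicate 6 was the lowest of its group for Gnat2 (3.219), Rbp3 (2.19), Aipl1 (1.78), Crx (1.483), Impg1 (3.221) and Tulp1 (2.14). Sham replicate 5 was lowest for the leukocyte and vessel genes Il1r2 (5.949), Napsa (6.923) and Lrg1 (6.32) and highest for Top2a (12.97). Of the other Sham libraries, replicate 1 was highest for Plac8 (10.81) and replicate 3 for Hist1h2bc (9.917). In LPS/HI, replicate 4 was highest for Slco2b1 (14.52), and replicate 1 was lowest for H1f2 (13.21) and highest for Mal (8.735) and Adgre4 (6.87).

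The interaction term of the limma fit, LPS/HI minus NaCl/HI set against LPS minus Sham, was called in 11 of the 92 genes. The 92 genes were chosen with their difference between LPS/HI and Sham known, Plk1, Cdc20, Pttg1 and Hist1h2bc among them after their values were seen. With no injection listed for Sham, injection enters the second difference alone. The first difference is of pooled hemispheres and the second of whole brains, so the term does not isolate how HI alters the effect of LPS. Over all genes, 220 (1.08%) passed this test. The term was positive for Olfm4 (1.747, adjusted p = 0.0465), which differed by -0.11 between LPS and Sham. It was negative, a smaller difference between the groups with HI, for C3 (-0.9934, adjusted p = 0.0474), Tnfsf13b (-0.8781, adjusted p = 0.0157), Ctsz (-0.6133, adjusted p = 0.0121), Tlr1 (-0.5684, adjusted p = 0.0409) and Tapbp (-0.4104, adjusted p = 0.0361). It was also negative for Plk1 (-0.6184, adjusted p = 0.0188), Cdc20 (-0.5367, adjusted p = 0.027), Pttg1 (-0.5539, adjusted p = 0.0316), Hist1h2bc (-0.7822, adjusted p = 0.0339) and H1f2 (-0.3918, adjusted p = 0.0366).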

How the results depend on the processing

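The numbers of genes called by adjusted p alone moved most. They were 1715 higher and 1379 lower with 19 residual degrees of freedom, and 4511 and 4055 with array weights. With only the LPS/HI and Sham samples they were 1899 and 1525, in a fit whose degrees of freedom were likewise not lowered for the surrogate variables. Same-numbered samples showed no clear pairing (correlations of their deviations from -0.185 to 0.217, with 2 of 6 LPS/HI samples closest to their own number). These correlations cannot exclude pairing, since removing surrogate variables can take shared effects out. With a replicate block 482 genes were higher and 269 lower, of which 743 were among the 1781. Without the lowest 25% of genes, 3 genes were lower past a fold of 2 and 11 past 1.5-fold, since weak genes were not tested, and with array weights 18 and 43. With 1 library left out, genes past a fold of 2 ranged from 5 to 14 higher and 3 to 6 lower, those past adjusted p from 506 to 1511 higher and 263 to 1033 lower, and those past 1.5-fold from 37 to 79 higher and 19 to 27 lower. Of 92 genes followed singly, 76 were called in every alternative with all libraries kept in which they were tested (weak genes such as Rbp3 and Crx were left out by the filter), 82 with any 1 library left out, and 0 reversed. The 16 calls that ended with all libraries kept were those of Mmp8, S100a8, Olfm4, Hk3, Ppp1r14b-ps2, Spp1, Il1r2, Anxa1, Plac8, Cd14, Slco2b1, Ccl24, Top2a, Mki67, Gfap and Egr2. The replicate block ended those of Mmp8, Olfm4, Hk3, Spp1, Gfap and Mki67 (0.0527 for Mki67), robust variances those of Mmp8, S100a8, Hk3, Spp1 and Gfap, and the lack of a variance trend those of Mmp8, Hk3 and Spp1. With the replicate block, among lists with 3 or more calls that moved by over 1.5 times, the number of risen members fell from 39 to 10 for oxidative phosphorylation, 14 to 9 for interferon-stimulated genes, 13 to 6 for G1/S, 11 to 7 for neutrophil markers, 7 to 2 for each of hypoxia and glycolysis, endothelial markers and ribosomal proteins, 5 to 1 for lysosomal proteins, 4 to 2 for lipid storage, 3 to 0 for astrocyte markers, and from 8 to 5 for each of disease-associated microglia genes, proteases, NRF2 targets and pericyte markers, and fallen cytokine genes from 3 to 1. After median centring 1 lysosomal and 4 ribosomal protein genes were higher and 5 genes of cholesterol synthesis lower, in place of 5, 7 and 2. The cause of these shifts was not tested, and depth is unknown.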
